A study of Equus caballus with 25 samples.

Results

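PTGS2 encodes prostaglandin-endoperoxide synthase, the inducible cyclooxygenase known as COX-2, and its transcript was followed here in airway cells of horses with and without asthma. The array carried 7238 transcripts, and 1 of them is paired with PTGS2 in the study's gene lists, ENSECAT00000018514, so the gene was read by a single probe. Cyclooxygenases turn arachidonic acid, once a lipase has freed it from membranes, into the prostaglandin from which prostaglandin E2, prostacyclin and thromboxane are made. PTGS1 is present in many resting cells, whereas PTGS2 is switched on in macrophages, neutrophils and epithelial cells by bacterial products and by interleukin 1 and tumour necrosis factor, largely through NF kappa B. In the airways its products act on vessels, mucus, smooth muscle and leukocytes, and the enzyme is the target of the anti-inflammatory drugs most used in horses.

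Total RNA of the cells in bronchoalveolar lavage (BAL) fluid was hybridised to a one-colour Agilent array, 1 array per horse. The 25 horses fell into CTRL (n = 7, healthy), MEA (n = 10, mild equine asthma, labelled IAD) and SEA (n = 8, severe equine asthma, labelled RAO). The CTRL horses were all standardbreds and the diseased horses were mostly saddle horses, so breed and disease cannot be told apart. The SEA horses were older than the CTRL and MEA horses, which were of like age, so age and SEA cannot be told apart. MEA horses were entered with neutrophilic inflammation, and neutrophil and macrophage percentages separate the groups completely, so that disease group and neutrophil share cannot be told apart either. As BAL is a mixture of cells, more cells that express a transcript and more RNA per cell cannot be told apart in any value given here.

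The probe that reads PTGS2 is shown because every value rests on it. It is the following 60-base sequence as the array files give it, 5′ to 3′, with no base singled out in capitals.
PTGS2 probe: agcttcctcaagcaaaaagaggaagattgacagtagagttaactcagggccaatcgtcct
Its GC content was 45%, no other of the 7237 probes carried the same sequence, and the longest run of bases it shared with any of them was 13. Each array held the probe on 2 spots. Both spots were well above background on all 25 arrays, none was saturated and none was marked as an outlier. The 2 spots of a horse differed by a median of 0.11 on the log2 scale, and by over 0.5 only in CTRL replicates 7 (1.09) and 1 (0.69).

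The arrays had between 58.2% and 90.8% of their spots well above background, with medians of 77.7% in CTRL, 74.0% in MEA and 72.7% in SEA. One horse stood apart from its group before any PTGS2 result: in MEA replicate 3 the level of 388 of the 4930 tested transcripts (7.87%) was an outlier among MEA horses by Dixon's test, against 0 to 59 in the other MEA horses. SEA replicates 6 and 1 followed with 173 and 118 transcripts. The main differences in PTGS2, the counts of transcripts that vary with it and the slopes are given with and without the horse they rest on.

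PTGS2 was overexpressed in both forms of asthma, and its mean level rose from CTRL over MEA to SEA. On the log2 scale of normalized intensity CTRL averaged 10.19 ± 0.72 (SD, n = 7), MEA 11.53 ± 0.59 (SD, n = 10) and SEA 12.36 ± 0.74 (SD, n = 8). The CTRL horses lay at 9.38, 9.65, 9.69, 9.83, 10.58, 11.10 and 11.10. The MEA horses ranged from 10.60 over a median of 11.52 to 12.79, and the SEA horses from 11.38 over a median of 12.76 to 13.15. All SEA horses lay above all CTRL horses, whereas both neighbouring groups overlapped: 8 of 10 MEA horses exceeded the highest CTRL horse, and 4 of 8 SEA horses exceeded the highest MEA horse.

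**Figure D1:**
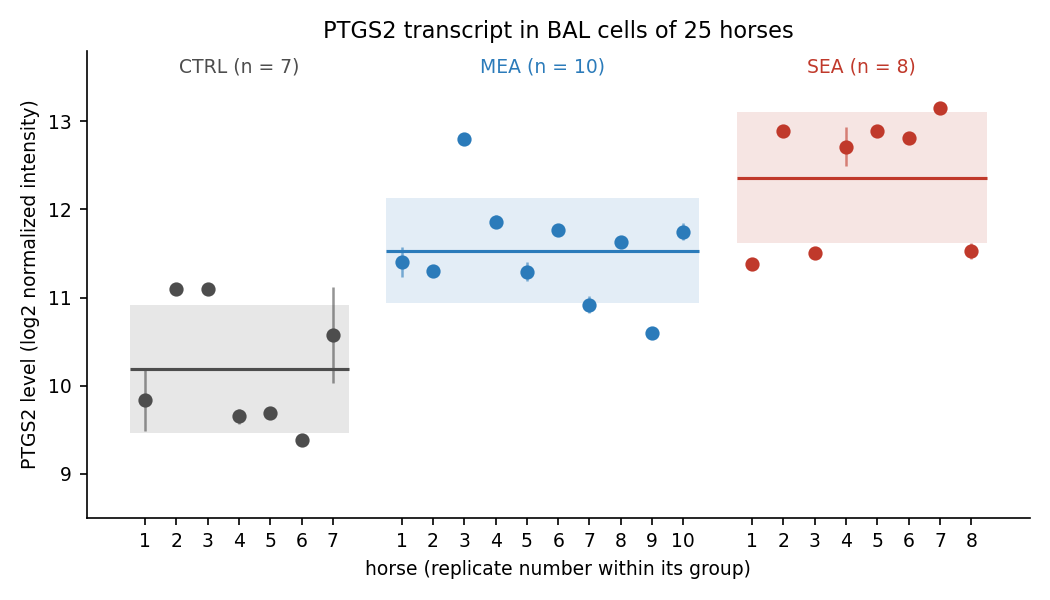
PTGS2 level (log2 normalized intensity, vertical axis) of each of the 25 horses, by group and replicate number (horizontal axis). Points are the mean of 2 spots, thin vertical lines join the 2 spots, and bands give the group mean ± SD. The SEA horses lie between 11.38 and 13.15, all above the CTRL horses (9.38 to 11.10), and 1 MEA horse, replicate 3, reaches 12.79.

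Within CTRL, replicates 2 and 3 lay at 11.10 while 4 others were below 10. SEA held no level between 11.53 and 12.71: replicates 1, 3 and 8 were at 11.38, 11.51 and 11.53, and the other 5 between 12.71 and 13.15. The 3 lower SEA horses were hybridised on slides 1, 2 and 4, and the 5 higher ones all on slides 2 and 3. The split inside SEA thus partly followed the slide, and the part of the slide in it was not tested. The SD of PTGS2 was larger than that of 77.3% of the tested transcripts in CTRL, 51.6% in MEA and 66.6% in SEA.

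Horses with SEA had 4.5 times the PTGS2 intensity of controls. The difference SEA minus CTRL was 2.17 on the log2 scale (SE 0.36, 95% interval 1.41 to 2.93), with an adjusted p of 0.00376 by limma over 4930 transcripts. A transcript is called here when that p is below 0.1 and the fold is at least 1.5, and by this rule 32.7% of the tested transcripts were called between SEA and CTRL, 16% higher and 16.7% lower in SEA. Among these 791 transcripts PTGS2 had the 57th largest rise, against a median rise of 1.11. The groups did not overlap for PTGS2, as for 77 transcripts (1.56%) with SEA on the higher side. An exact two-sided permutation test of the PTGS2 level alone gave p = 0.000155 over 6435 splits. The study's lists give symbols to transcripts that it called in these same horses, PTGS2 in the lists of both disease groups against CTRL, so the p-values of these contrasts are not independent evidence of a rise.

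In MEA the PTGS2 intensity was 2.53 times that of controls. The difference MEA minus CTRL was 1.34 (SE 0.31, 95% interval 0.70 to 1.98, limma adjusted p = 0.0235), and it was called, in a contrast in which 9.78% of the tested transcripts were, 3.25% higher and 6.53% lower in MEA. Only 11 of the 4930 transcripts had a larger rise in MEA, and PTGS2 was the 7th of the 160 called higher. The exact two-sided permutation p was 0.00072 over 19448 splits. Without MEA replicate 3 the difference was 1.2 (limma adjusted p = 0.0340). With the percentage of exfoliated epithelial cells as a covariate it was 1.19 and was no longer called (limma adjusted p = 0.242), a fit in which no transcript was called in this contrast and 610 had an unadjusted p below 0.05.

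The step from MEA to SEA was smaller and was not called. SEA minus MEA was 0.83 (SE 0.31, 95% interval 0.19 to 1.47), 1.77 times the intensity, with a limma adjusted p of 0.152, in a contrast with 110 called transcripts (2.23%), of which 71 (1.44%) were higher in SEA. This contrast played no part in the naming of the probe. The exact two-sided permutation p of the PTGS2 level alone was 0.0213, which carries no adjustment for the number of transcripts. The call turned on single horses: it passed without MEA replicate 3 (0.97, limma adjusted p = 0.0509) and without SEA replicate 1 (0.97, limma adjusted p = 0.0838), and with array weights (1.25, limma adjusted p = 0.00896). When the slide was blocked the difference was 0.54 (limma adjusted p = 0.469).

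**Figure D2:**
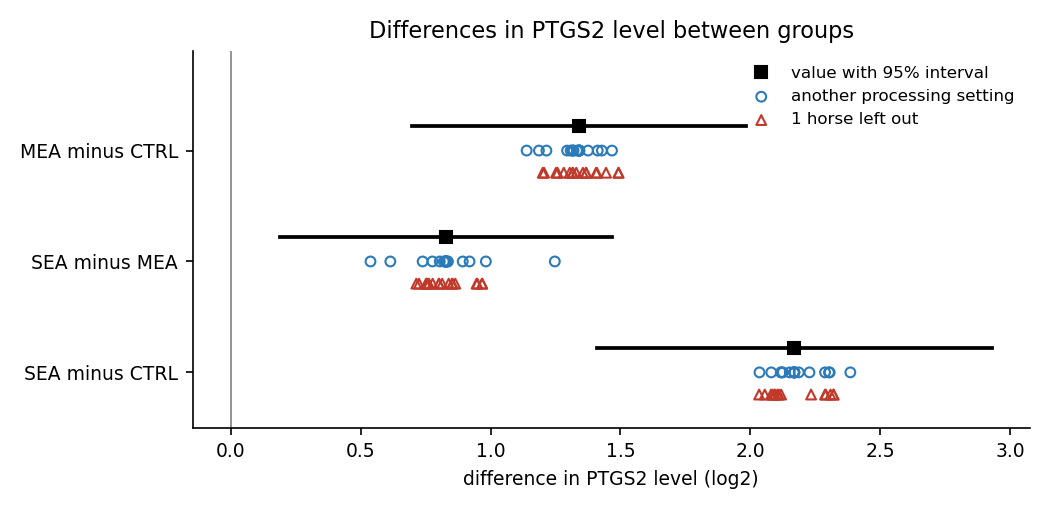
Differences in PTGS2 level between groups (log2, horizontal axis) for 3 comparisons (vertical axis). Black squares and lines are the value and its 95% interval, open circles the values under other processing settings, and triangles the values with 1 horse left out. All values lie above 0, and those of SEA minus MEA run from 0.54 to 1.25.

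Whether the rise was graded in equal steps was asked in 1 fit over the 25 arrays. The step from MEA to SEA minus the step from CTRL to MEA was -0.51 (SE 0.54, 95% interval -1.62 to 0.60, limma adjusted p = 0.71), so a smaller, an equal and a slightly larger second step all lie within the interval. By limma no transcript had steps that differed past an adjusted p of 0.1, and 675 had an unadjusted p below 0.05. The mean order CTRL below MEA below SEA was held by 26.3% of the tested transcripts. PTGS2 was among 97 (1.97%) called higher in both diseases against the shared CTRL horses, and among 67 (1.36%) of them that also kept that order.

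The 25 arrays lay on 4 slides, each with horses of all 3 groups. SEA minus CTRL was 2.70 and 2.71 on slides 2 and 3, and 0.92 and 0.95 on slides 1 and 4, which held 1 SEA horse each. MEA minus CTRL was 0.88, 1.9, 1.53 and 0.96 on slides 1 to 4. Both contrasts were thus above 0 on every slide, while SEA minus MEA was 0.79 and 1.19 on slides 2 and 3 and near 0 on slides 1 (0.03) and 4 (-0.01). Slide 3 held 1 MEA horse. Slide 4 held 1 CTRL horse, replicate 7, whose 2 spots differed by 1.09, so its differences from CTRL rest on that horse. Females were lower than males by 0.51 within groups (SE 0.25, n = 13 and 12), with a limma p of 0.054 unadjusted and 0.714 adjusted over all tested transcripts.

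Of 47 genes of the eicosanoid pathway, 9 have a transcript with a symbol here, PTGS2 among them, and all 9 passed the filter on dim probes. The partner enzymes PTGS1, PTGES and ALOX5 are not among those named and were not analysed here. Of the 8 transcripts beside PTGS2, 3 were called higher and 1 lower in SEA against CTRL, with a median difference of 0.86 against -0.01 over all tested transcripts. Of all tested transcripts 16% were called higher there, and of those with a symbol 42.2%, a share that 3 of 8 did not exceed. In MEA against CTRL none was called higher and 1 lower, with a median of -0.09 against 0.03. PTGS2 had the largest rise of the 9 in both contrasts. Since symbols exist only for transcripts that the study called, these counts describe the named transcripts and not the pathway.

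Among enzymes that free the substrate, PNPLA8, a calcium-independent phospholipase, lay between 4.33 and 5.46 in CTRL (median 4.64), between 4.05 and 5.35 in MEA (median 4.39) and between 5.52 and 6.82 in SEA (median 5.79). All SEA horses were thus above all horses of both other groups, which held against MEA for 3 tested transcripts (0.0609%). The differences were 1.27 against CTRL (limma adjusted p = 0.00416) and 1.39 against MEA (limma adjusted p = 0.0133), and PNPLA8 was the 1 eicosanoid transcript called between the diseases. PNPLA8 was dim: 1 MEA array was not well above background, and 6 MEA and 2 CTRL horses lay below 4.5, the level used to filter transcripts. MGLL, a lipase that frees arachidonic acid from a glycerol ester, differed by 0.98 in SEA (limma adjusted p = 0.102).

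Among receptors, PTGER2, a receptor of prostaglandin E2 that raises cyclic AMP, ranged from 5.43 to 7.57 in CTRL (median 6.6), from 5.3 to 8.05 in MEA (median 6.54) and from 6.6 to 8.34 in SEA (median 7.46). It was higher in SEA by 1.04 (limma adjusted p = 0.0276) and differed by -0.05 in MEA (limma adjusted p = 0.94), with groups that overlapped. LTB4R, the receptor through which leukotriene B4 attracts neutrophils, was higher in SEA by 1.05 (limma adjusted p = 0.058) and differed by 0.27 in MEA (limma adjusted p = 0.662). PTGFRN, a membrane protein that binds to the prostaglandin F receptor, was lower in MEA by 1.14 on the log2 scale and is the transcript called lower there (difference -1.14, limma adjusted p = 0.0922), with 3 arrays of the diseased horses not well above background. Its levels ran from 3.86 to 6.20 in CTRL, 2.44 to 5.63 in MEA and 1.26 to 5.50 in SEA. PTGFRN was called neither in SEA against CTRL nor between the diseases, so its fall is not shown to be particular to MEA. It was dim too: 7 of 10 MEA, 3 of 8 SEA and 1 of 7 CTRL horses lay below 4.5.

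Among enzymes and carriers downstream, EPHX2, which hydrolyses epoxides of fatty acids, was lower in SEA (difference -0.93, limma adjusted p = 0.0344) and differed by -0.61 in MEA (limma adjusted p = 0.172). PTGR2, a prostaglandin reductase, differed by -0.55 in SEA (limma adjusted p = 0.261). ABCC1, a carrier that exports leukotriene C4, differed by 0.73 in SEA (limma adjusted p = 0.161). None of the 8 varied with PTGS2 inside the groups past an adjusted p of 0.1, with r between -0.39 for PTGR2 and 0.48 for PNPLA8.

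**Figure D3:**
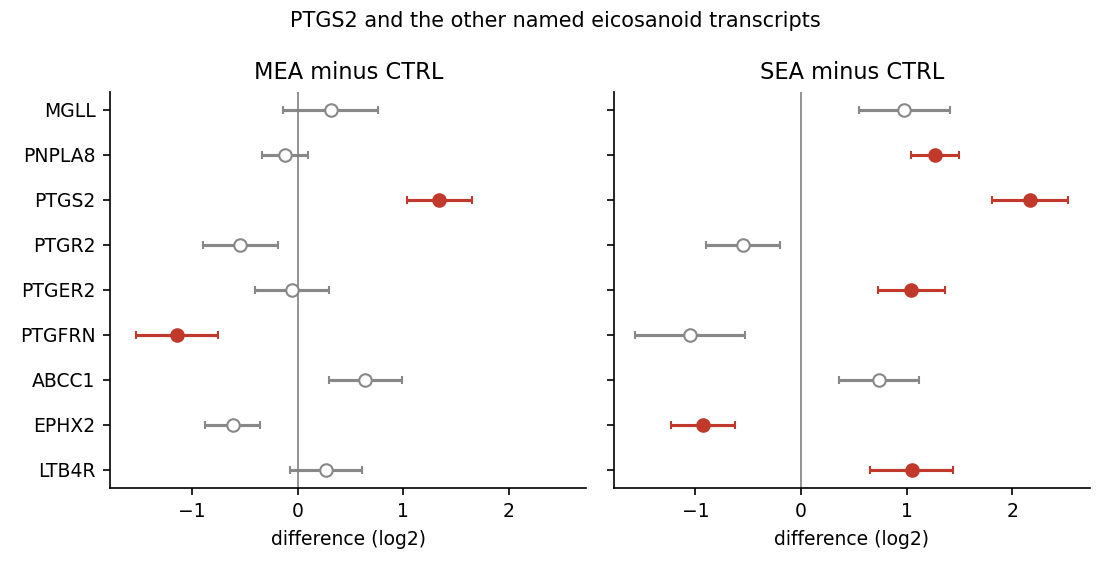
Difference from CTRL (log2, horizontal axes) of PTGS2 and the 8 other eicosanoid transcripts with a symbol (vertical axis), for MEA (left) and SEA (right). Points are limma estimates with their SE, and filled red points are called (adjusted p below 0.1 and at least 1.5-fold). PTGS2 shows the largest rise in both panels, 1.34 and 2.17.

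To find which transcripts moved with PTGS2 from horse to horse, each was regressed on the PTGS2 level with group terms, so that differences between groups did not enter. Of 4929 transcripts, 464 (9.41%) varied with PTGS2 past a limma adjusted p of 0.1, of which 335 (6.8%) varied positively and 129 (2.62%) negatively. Of the positive ones, 326 had r above 0 in each of the 3 groups, which their choice over the same horses partly builds in. The closest was IL1B, which encodes interleukin 1 beta, with r = 0.81 over the 25 deviations from group means (limma adjusted p = 0.00243). Among CTRL horses its r was 0.97, among MEA horses 0.65 and among SEA horses 0.84. A second IL1B transcript had r = 0.73 (limma adjusted p = 0.0106). The IL1B level ranged from 11.47 to 14.74 in CTRL (median 12.39), up to 15.81 in MEA (median 12.79) and from 12.67 to 16.85 in SEA (median 14.90). Its probe shared at most 4 bases in a row with that of PTGS2.

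These counts rest on 1 horse. MEA replicate 3 had the highest PTGS2 level of its group, and without it 1 transcript, IL1B, was past the threshold (r = 0.77, limma adjusted p = 0.0384), while 604 had an unadjusted p below 0.05. All 335 transcripts with a positive call kept r above 0 without that horse, 295 of them with an unadjusted p below 0.05, and their median r went from 0.60 to 0.51. They were chosen for their r in a fit that held the remaining horses too, so this was largely built in. Without SEA replicate 1, 146 transcripts passed, without SEA replicate 7, 277, and without MEA replicate 7, 716. With the slide as a block 174 passed, of which 171 were among the 464. PTGS2 deviations had r = 0.05 with the share of spots well above background and -0.04 with the array's median intensity, both over 25 horses and given as a description.

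The 10 transcripts closest to PTGS2 were IL1B, JUNB, SOCS3 (on 2 transcripts), IL8, TNFAIP3, NFKBIA and 3 without a symbol here. JUNB, a subunit of the AP-1 transcription factor, had r = 0.76 inside groups (0.99 in CTRL, 0.59 in MEA and 0.72 in SEA, limma adjusted p = 0.0098). IL8, a chemokine that draws neutrophils, had r = 0.74 (limma adjusted p = 0.0098). TNFAIP3 and NFKBIA, which restrain NF kappa B and are themselves induced by it, had r of 0.74 (limma adjusted p = 0.0098) and 0.74 (limma adjusted p = 0.0106), and the 2 transcripts of SOCS3, an inhibitor of cytokine receptor signalling, had 0.75 and 0.74. The 3 without a symbol were ENSECAT00000001931 (r = 0.77), ENSECAT00000010407 (r = 0.76) and ENSECAT00000012394 (r = 0.75). With any 1 horse left out, r of these 10 stayed between 0.68 and 0.88, a range partly built in as they were chosen over the same horses.

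Between groups the closest transcripts were read against the same CTRL horses. IL1B was higher in SEA by 1.87 (limma adjusted p = 0.0436) and differed by 0.19 in MEA (limma adjusted p = 0.88), and JUNB was higher in SEA by 1.26 (limma adjusted p = 0.0256) and differed by 0.22 in MEA (limma adjusted p = 0.759). TNFAIP3 differed by 1.28 in MEA (limma adjusted p = 0.175). The 7 with a symbol were called higher in SEA, as were 42.2% of all transcripts with a symbol. Symbols exist only for transcripts that the study called in these horses, so this count is partly built in. None of the 10 was called in MEA, where PTGS2 was and where 3.25% of the tested transcripts were called higher. Whether these 10 differ from PTGS2 in this was not tested. The 5 transcripts with the lowest r, from -0.66 to -0.72, had no symbol here and were ENSECAT00000006018, ENSECAT00000011025, ENSECAT00000003865, ENSECAT00000017412 and ENSECAT00000012197.

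**Figure D4:**
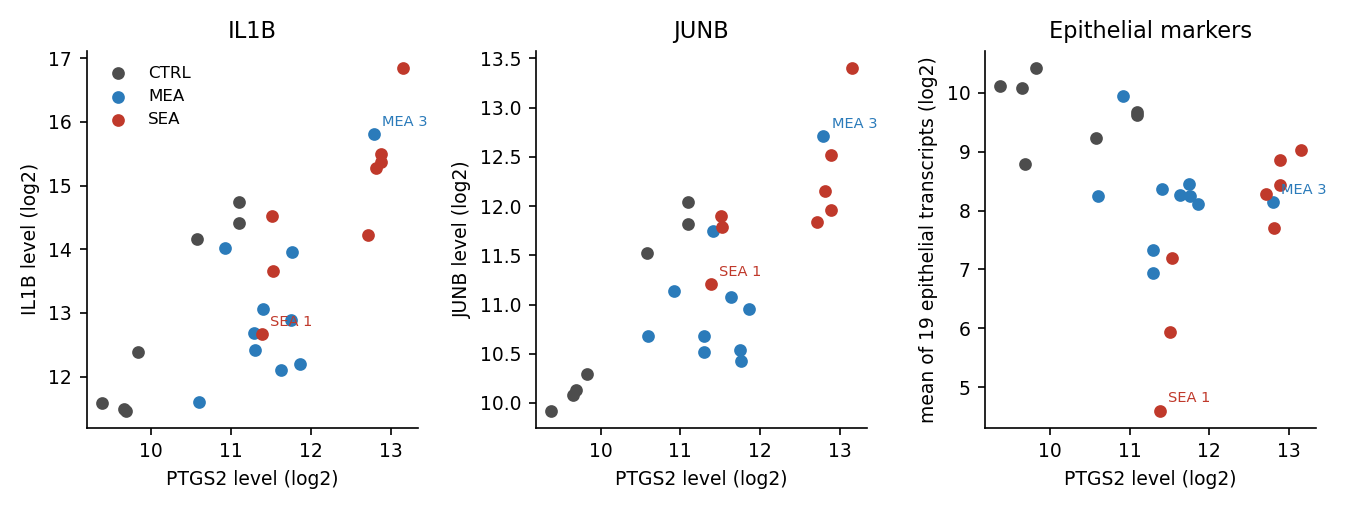
Level of IL1B (left), of JUNB (middle) and mean level of 19 epithelial marker transcripts (right) against the PTGS2 level (all log2 normalized intensity), 1 point per horse, coloured by group. IL1B and JUNB rise with PTGS2 in each group (r of 0.97 and 0.99 in CTRL). The epithelial markers rise with it among SEA horses, where SEA replicate 1 is lowest.

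Lists of genes around the induction of PTGS2 were read in the same way, against 14.7% of transcripts with a symbol that varied positively with PTGS2 and 42.2% of them called higher in SEA against CTRL. A symbol was present for 22 of 31 upstream signals, 8 of 13 promoter factors, 19 of 23 early induced genes and 16 of 18 inhibitors. As symbols exist only for transcripts that the study called, the counts describe the named members and not the whole lists. Of the upstream signals (interleukin 1, tumour necrosis factor and Toll-like receptors, their kinases and NF kappa B subunits), 15 of 26 transcripts varied positively with PTGS2, with a median r of 0.56 against 0.22 over transcripts with a symbol. Without MEA replicate 3, 1 of the 26 passed (IL1B), with a median r of 0.43 against 0.21. In SEA 25 of the 26 were called higher and in MEA 2, IL1RAP and MAP3K8. TLR4, the receptor for bacterial endotoxin, was higher in SEA by 2.36 and had r = 0.70 with PTGS2 (limma adjusted p = 0.0139). IL1A and TREM1, a receptor that amplifies leukocyte activation, were higher by 2.31 and 3.6 with r of 0.70 and 0.63, and TNFRSF1B, a receptor for tumour necrosis factor, by 2.14 with r = 0.66.

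Of factors known to act on the PTGS2 promoter, 7 of 9 transcripts varied positively with PTGS2 and all 9 were called higher in SEA. Without MEA replicate 3 none of them passed, 5 had r above 0 with an unadjusted p below 0.05 by limma, and the median r went from 0.57 to 0.45. CREM was higher in SEA by 2.63, with 6 CTRL and MEA arrays and 1 SEA array not well above background, and had r = 0.52. EGR1, an immediate early factor, was higher in SEA by 1.84 against CTRL and by 1.99 against MEA (limma adjusted p = 0.0542), differed by -0.15 in MEA against CTRL, and had r = 0.68. CREB1, which binds cyclic AMP response elements, was higher by 1.31 with r = 0.45 (limma adjusted p = 0.163). ATF2 was the 1 factor called in MEA (0.88, limma adjusted p = 0.0418) and had r = -0.15 with PTGS2.

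Of genes induced early when leukocytes are activated, 17 of 20 transcripts varied positively with PTGS2, with a median r of 0.61 and 19 called higher in SEA. Without MEA replicate 3 none passed, 17 had r above 0 with an unadjusted p below 0.05 by limma, and the median r was 0.54. Such a p with r above 0 was then reached by 19.8% of the transcripts with a symbol. SERPINB2, an inhibitor of plasminogen activators, was higher in SEA by 2.88 with r = 0.56, PTX3, a soluble pattern recognition protein, by 2.59 with r = 0.69, and PLAUR, the urokinase receptor, by 2.41 with r = 0.71. CSRNP1 was higher by 2.5 with r = 0.70. A CXCL2 transcript was the 1 member called in MEA (1.1, limma adjusted p = 0.0476). Of the inhibitors of inflammatory signalling, 7 of 15 varied positively (median r of 0.51), 12 were called higher in SEA and 1 lower. Without MEA replicate 3 none of the inhibitors passed, 8 had r above 0 with an unadjusted p below 0.05 by limma, and the median r was 0.43. IL18BP, which binds interleukin 18, was higher in SEA by 2.5 with r = 0.41 (limma adjusted p = 0.193), and NFKBID, an I kappa B protein of the nucleus, by 2.05 in SEA and by 1.17 in MEA (limma adjusted p = 0.0922) with r = 0.69.

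Cell type markers were read beside PTGS2 because both groups of diseased horses differed from CTRL in cell makeup. Of 16 neutrophil markers, 8 had a named transcript, and 7 of these were called higher and 1 lower in SEA, where 42.2% of all transcripts with a symbol were called higher. In MEA 1 of the 8 was called lower and none higher. Their mean level ran from 7.56 to 10.02 in CTRL, 8.5 to 11.96 in MEA and 8.04 to 11.65 in SEA. The highest value, 11.96, was that of MEA replicate 3, whereas SEA replicate 1 had the lowest of its group. Inside groups 3 of the 8 varied positively with PTGS2 (median r of 0.47), and without MEA replicate 3 none did (median r of 0.34). Of 14 macrophage markers 6 had a symbol. Of their 6 tested transcripts, of which 2 read SIGLEC1, 2 were called higher in SEA and 2 in MEA. Of all transcripts with a symbol 42.2% were called higher in SEA, a share that 2 of 6 did not exceed. In MEA 3.25% of all tested were called higher, which is not a like background as most have no symbol. None of the 6 varied with PTGS2 past the threshold (median r of -0.28, and of -0.69 inside SEA, where 1 of the 6 had r above 0). Of 19 lymphocyte markers 9 had a symbol. Of their 11 tested transcripts, several of which read the same gene, GZMB, 7 were called higher and 1 lower in SEA, against 42.2% of transcripts with a symbol called higher. Inside groups 2 of the 11 varied positively with PTGS2 (median r of 0.30), against 14.7% of transcripts with a symbol, and none did without MEA replicate 3. The 1 named transcript of eosinophils and mast cells, PRG3, was called higher in SEA (1.77, limma adjusted p = 0.0489) and had r = 0.11. PRG3 differed by 1.56 in MEA, where it was not called. It was dim in CTRL, where levels ran from 2.12 to 6.55 and some horses lay below 4.5, the level used to filter transcripts. The part of these cells in the PTGS2 differences was not tested.

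Epithelial transcripts, of cilia, cell junctions, mucins and other epithelial genes, fell in asthma while PTGS2 rose. Of 19, 18 were called lower in SEA (16.7% of all tested) and 13 in MEA (6.53% of all tested). All 19 have a symbol, and symbols exist only for transcripts that the study called, so the share over all tested is not a like background. Their median difference in SEA was -2.32, against -0.38 over transcripts with a symbol and -0.01 over all tested. Their mean level ran from 8.79 to 10.42 in CTRL, 6.93 to 9.95 in MEA and 4.60 to 9.04 in SEA. Inside SEA, however, all 19 had r above 0 with PTGS2, between 0.73 and 0.96 (median 0.86, n = 8), against medians of -0.42 in CTRL and -0.16 in MEA. Since no SEA level lay between 11.53 and 12.71, an r inside SEA mostly contrasts the horses on either side of that gap. In a test, chosen after these r values were seen, of whether the slope on PTGS2 differed between SEA and CTRL, 243 of 4929 transcripts (4.93%) passed a limma adjusted p of 0.1, and 11 of the 19 epithelial transcripts were among them. The 19 transcripts read 16 genes, and the 11 include repeat transcripts of RSPH9 and of KRT18. The slope of TEKT2, a protein of cilia, was higher in SEA by 2.88 (limma adjusted p = 0.0322), that of RSPH4A, a radial spoke protein, by 3.61 (limma adjusted p = 0.0353), and that of SPAG6 by 3.57 (limma adjusted p = 0.0353). Without SEA replicate 1, which had the lowest epithelial mean, 2 transcripts passed, and TEKT2 differed by 2.63 (limma adjusted p = 0.154), although all 19 still had r above 0 in the other 7 SEA horses (0.62 to 0.95).

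The PTGS2 level was set against the percentages of neutrophils, macrophages, lymphocytes and epithelial cells counted in the same lavage, inside each group, as the neutrophil and macrophage percentages separate the groups while those of lymphocytes and epithelial cells overlap between at least some groups. Horses were matched to their counts by the code in the sample titles. None of the 12 relations passed, the lowest adjusted p by permutation being 0.905 over the 12 and the lowest unadjusted p 0.151. Counts and marker RNA did not rank horses alike. MEA replicate 3 had the highest neutrophil marker mean of all horses (11.96) with a neutrophil percentage below its group mean. SEA replicate 6 had the lowest neutrophil percentage of SEA and its highest marker mean (11.65). How well the counts describe the cells in the RNA was not tested. With neutrophils r was 0.12 in CTRL (Spearman's rho -0.11, exact permutation p of 0.801 and 0.816), -0.17 in MEA (rho -0.27, permutation p of 0.643 and 0.455) and -0.46 in SEA (rho -0.31, exact permutation p of 0.246 and 0.462). Without the 2 horses farthest from the median percentage r was 0.15, -0.07 and -0.31. The sign in SEA was opposite to that of the neutrophil marker transcripts, of which 7 of 8 had r above 0 there.

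With macrophages r was -0.38 in CTRL (rho -0.56, exact permutation p of 0.453 and 0.206), -0.10 in MEA (rho -0.22, permutation p of 0.773 and 0.54) and 0.55 in SEA (rho 0.48, exact permutation p of 0.153 and 0.243). Without the 2 farthest horses these r were 0.00, -0.14 and 0.49. In SEA the sign was again opposite to that of the marker transcripts, whose median r was -0.69. With lymphocytes r was 0.28 in CTRL (rho 0.41, exact permutation p of 0.528 and 0.357), 0.49 in MEA (rho 0.56, permutation p of 0.151 and 0.0966) and -0.02 in SEA (rho -0.46, exact permutation p of 0.978 and 0.256). The MEA relation fell to 0.23 without the 2 farthest horses, the CTRL one went to 0.49, and the SEA one went to -0.70, so that it rested on those horses.

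With epithelial cells r was -0.01 in CTRL (rho 0.02, exact permutation p of 0.97 and 0.975), 0.29 in MEA (rho 0.10, permutation p of 0.436 and 0.794) and 0.36 in SEA (rho 0.31, exact permutation p of 0.361 and 0.448). Without the 2 farthest horses they were 0.51, 0.04 and -0.01. Groups of this size hold wide ranges: with any 1 horse left out, r with neutrophils in CTRL ran from -0.19 to 0.53 and r with lymphocytes in SEA from -0.79 to 0.07.

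**Figure D5:**
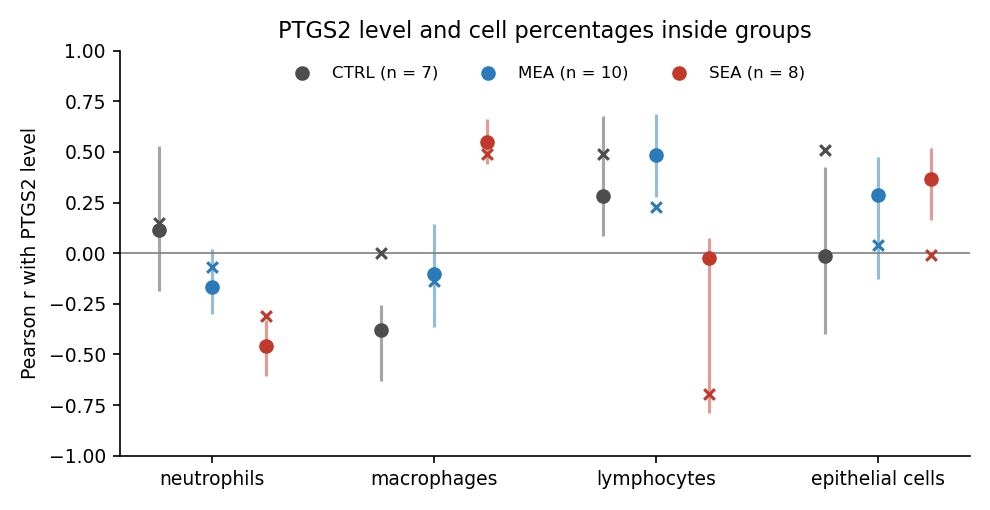
Pearson r between PTGS2 level and the percentage of 4 cell types (horizontal axis) inside CTRL, MEA and SEA (colours). Points use all horses of a group, vertical lines run over the values with 1 horse left out, and crosses leave out the 2 horses farthest from the median percentage. The points lie between -0.46 and 0.55, and none of the 12 relations passed the test.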

How the data were processed

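RNA of BAL cells from 25 horses was labelled with Cy3 and hybridised to a custom Agilent array of 14476 gene spots, 2 per transcript. The deposited intensity values were made by the authors with Agilent Feature Extraction, which subtracts background and detrends within each array and scales nothing between arrays. The authors' normalized intensity table (R 2.11.1, per the labels) served as an alternative. Here log2 intensity was normalized over all arrays by cyclic loess (span 0.7, 3 iterations) as the study did, 165 outlier spots were left out, the mean of both spots was taken, and a filter dropped transcripts under 4.5 on 19 or more arrays, leaving 4930. Groups were compared by limma 3.58.1 (R 4.3.3) on the arrays of 2 groups, with Benjamini-Hochberg adjustment over all tested transcripts. Associations used limma with group terms. Cell percentages came from the study's cytology and were tested by exact permutation, or 100000 resamples for MEA (scipy 1.17.1, numpy 2.4.6). Exact permutation tests were two-sided.

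Symbols came from the study's lists of called transcripts. They name 1684 of the 4930, and none is placed on a genome here since the build is not given in the sources used here. Named genes were PTGS2, all tested eicosanoid genes, at most 4 called members of each other list by size, and the 10 highest and 5 lowest r. The gene, the lists and the slope test were chosen with earlier results of these data known. Alternatives were another scaling (75th percentile, quantile), normexp with an offset of 50, other filters (none, or at least 7 arrays well above background), 1 fit of 25 arrays, covariates (sex, epithelial percentage, share of spots above background), blocks (slide, scan date, replicate number), array weights, trend and robust settings, a rank sum test, single spots and leaving out each horse. The fits were tested on simulated data. The number of arrays and the 2 spots per transcript limit the precision. No 2 arrays held identical values.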

Additional observations from a re-analysis of the deposited data

Results flagged for a closer look

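No PTGS2 level was an outlier within its group. Over PTGS2 and the other named transcripts (37 in all, in 3 groups) 24 of 111 sets of levels held an outlier. Chance gives about 1 in 20, and over all tested transcripts 1282 of 14789 sets (8.67%) held one. The named transcripts include those chosen for their r with PTGS2, which rests on MEA replicate 3, so outliers of that horse among them are partly built in. MEA replicate 3 accounted for 15 of them (log2 levels): it was high for CSRNP1 (12.40), SOCS3 (9.03 and 9.96 on its 2 transcripts), ABCC1 (10.98), TNFAIP3 (10.76), TLR4 (15.87), CREM (7.52), TNFRSF1B (12.10), IL8 (17.72), ENSECAT00000001931 (8.18), ENSECAT00000010407 (14.24) and ENSECAT00000012394 (11.22), and low for ENSECAT00000003865 (7.58), ENSECAT00000006018 (5.85) and ENSECAT00000017412 (11.05). SEA replicate 1 was low for CSRNP1 (7.26), IL8 (14.46) and TREM1 (10.00). In SEA the level of TNFAIP3 in replicate 7 (11.97) and of PTGFRN in replicate 6 (1.26) stood apart. In CTRL replicate 2 stood apart for PNPLA8 (5.46) and ENSECAT00000006018 (5.95), replicate 5 for ABCC1 (7.43) and replicate 7 for PTGFRN (3.86).

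The slope of a transcript on PTGS2 differed between SEA and CTRL for 243 transcripts by an interaction term in limma, 223 of them with the higher slope in SEA. TEKT2 (2.88), RSPH4A (3.61) and SPAG6 (3.57) were among them. No transcript passed for MEA against CTRL, where 87 had an unadjusted p below 0.05.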

How the results depend on the processing

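The rise of PTGS2 in SEA was called under all 18 alternatives (2.04 to 2.39) and without each of 15 horses (2.03 to 2.32). The rise in MEA was called without each of 17 horses (1.2 to 1.49) and under all alternatives except the epithelial percentage as a covariate (1.19). SEA minus MEA ran from 0.71 to 0.97 without each horse, was called without MEA replicate 3 or SEA replicate 1, and was called with array weights (1.25). The difference between the steps ran from -0.72 to -0.23 without each horse and turned to 0.091 with array weights, never past the threshold. Replicate numbers did not pair the horses: same-numbered horses had correlations from -0.44 to 0.41 over transcripts, 10 of 21 above 0.1. With the replicate block PTGS2 differed by 2.29, 1.43 and 0.74 (SEA minus CTRL, MEA minus CTRL, SEA minus MEA), with no change of call, while calls went to 138 in MEA against CTRL, 0 in SEA against MEA (638 with an unadjusted p below 0.05 by limma), 3 transcripts varying with PTGS2, and 117 with differing slopes. The cell percentages passed in 0 of 12 relations under each alternative and without each horse.

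Counts of transcripts moved more. SEA against CTRL gave 1612, 754 with normexp and 1238 to 1706 without each horse. MEA against CTRL gave 482, 119 with normexp, 183 with the slide and 220 with the scan date as a block, 924 with array weights, 0 with the epithelial percentage (610 with an unadjusted p below 0.05 by limma), and 156 without CTRL replicate 1 to 750 without MEA replicate 7, with 195 and 177 without CTRL replicates 4 and 6 and 291, 301, 312 and 320 without MEA replicates 2, 5, 9 and 10. SEA against MEA gave 110, 0 with 75th percentile scaling (992 with an unadjusted p below 0.05 by limma), 39 with quantile normalization, 2 with normexp, 279 in 1 fit of 25 arrays, 208 with sex, 37 with the epithelial percentage, 219 with the share of spots above background, 0 with the slide (659 with an unadjusted p below 0.05 by limma) and 2 with the scan date as a block, 822 with array weights, 25 by rank sum, and 2 without SEA replicate 2 to 559 without MEA replicate 3. Each of the 18 omissions moved that count by over 1.5 times. Transcripts varying with PTGS2 gave 464, 184 with 75th percentile scaling, 40 with quantile normalization, 215 with the authors' values, 148 with sex, 174 with the slide, 192 with the scan date, 165 with array weights, and 1 without MEA replicate 3 to 716 without MEA replicate 7, with 146 and 277 without SEA replicates 1 and 7. Differing slopes of SEA and CTRL gave 243, 380 with 75th percentile scaling, 111 with quantile normalization, 132 with the slide, 647 with array weights, 116 with the share of spots above background, 141 with the first PTGS2 spot alone, and 2 without SEA replicate 1 to 322 without MEA replicate 7; omissions of CTRL replicates 1, 2, 4, 6 and 7 and SEA replicates 3, 5 and 7 also lowered it by over 1.5 times. The share, single-spot and slope alternatives were chosen after seeing the data, and the cause of these changes was not tested. The 75th percentile scaling moved the median of all transcripts in SEA minus MEA to -0.13, against -0.04.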
